A study of Mus musculus with 9 samples.

Results

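Golgi glycosyltransferases and nucleotide-sugar transporters were followed in primary mouse hepatocytes. They were taken by name as the protein-coding genes of the Slc35a to Slc35g, Mgat, B4galt, B3gnt, St3gal, St6gal, Galnt, Man1a, Man1c, Man2a and numbered Fut families. That gave 100 genes of 54532 in the table. The study sequenced RNA of 9 libraries, with 3 libraries to a group. CKO Tu cells came from COX-2 fl/fl Alb-Cre+ mice, in which the albumin promoter drives Cre in hepatocytes, and were given tunicamycin. WT Tu cells came from COX-2 fl/fl Alb-Cre- littermates and were given tunicamycin, and WT DMSO cells came from such littermates and were given DMSO. All groups were C57BL/6, carried the floxed COX-2 allele, and were kept in 1% serum for 2 hours before 24 hours of 6 μmol/L tunicamycin or of vehicle. The design text describes all mice as male and both genotypes as matched in age. No CKO cells without tunicamycin were analysed here, so the response to the drug in CKO cells was not measured against their own baseline.

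Proteins made in the endoplasmic reticulum (ER) receive N-glycans there and pass to the Golgi, where mannosidases trim these glycans and glycosyltransferases add N-acetylglucosamine, galactose, fucose and sialic acid. Polypeptide GalNAc transferases start mucin-type O-glycans on serine and threonine. The donor sugars are made mostly in the cytosol, and SLC35 carriers bring them into the ER and Golgi lumen. Most plasma proteins that hepatocytes secrete carry N-glycans ending in sialic acid. Tunicamycin blocks the first step in building the lipid-linked N-glycan precursor, so proteins enter the Golgi without N-glycans and the ER is stressed. Ptgs2, which encodes COX-2, an inducible prostaglandin synthase, is the gene deleted in CKO cells.

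Levels are FPKM, fragments per kilobase of a gene relative to library size. Libraries held 14897358 to 16001484 assigned fragments. Whether replicates are separate animals is not stated in the labels, and p-values here cover only the spread between these libraries. Ptgs2 had 1, 1 and 2 fragments in the CKO Tu libraries, 8, 5 and 5 in the WT Tu libraries and 0, 13 and 8 in the WT DMSO libraries. At these counts the gene checks the genotype labels only weakly. Xist, the noncoding RNA of X inactivation in females, had 0, 3 and 0 fragments in the CKO Tu libraries, at least 27610 in each WT Tu library and at least 20659 in each WT DMSO library. The Y-linked gene Ddx3y had 1841 to 1996 fragments in the CKO Tu libraries and 0 in every WT Tu and WT DMSO library. Sex-linked transcription therefore goes against the label of male mice in the WT groups, and it cannot be told apart from genotype in any comparison of CKO Tu with a WT group. WT Tu replicate 1 had the highest mitochondrial share of fragments, 6.87%, against 4.40% to 5.90% in the other libraries. It also stood apart in its fragment counts over genes, with a chi-square per degree of freedom of 21.6 and 19.6 against the other WT Tu libraries, which differed from each other by 3.73. WT DMSO replicate 1 did so to a lesser degree, at 11 and 9.46 against 3.51. Markers of hepatocytes summed to 17490 to 18660 FPKM in CKO Tu, 19470 to 20710 FPKM in WT Tu and 19960 to 22220 FPKM in WT DMSO. Markers of Kupffer cells summed to 92.7 to 107 FPKM in CKO Tu, 96.9 to 115 FPKM in WT Tu and 75.3 to 93.0 FPKM in WT DMSO. Of their 10, only 2 reached 1 FPKM in 3 or more libraries, and Vsig4 alone was at 0 in every library. Cholangiocyte markers summed to 34.3 to 38.3 FPKM in CKO Tu. Their sums were 22.8 to 24.3 FPKM in WT Tu and 22.7 to 25.9 FPKM in WT DMSO. Markers of endothelial cells, stellate cells, and lymphocytes with neutrophils each summed to at most 11.8 FPKM.

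Of the 100 genes, 50 reached 1 FPKM in 3 or more libraries and were tested. Among the other 50, 13 had no fragment in any library and 37 had some. The tested genes covered the roles unevenly. They were 13 of 14 carriers of the Slc35a to Slc35d families, 7 of 13 of the Slc35e to Slc35g families, 4 of 5 mannosidases, 4 of 10 Mgat enzymes, 7 of 16 B4galt and B3gnt enzymes, 8 of 15 sialyltransferases, 1 of 8 fucosyltransferases and 6 of 19 polypeptide GalNAc transferases. Levels ranged widely, and 19 genes had a mean of at least 10 FPKM over the 9 libraries. The highest means belonged to Slc35b1, Mgat4b, Mgat2, Slc35f5 and St3gal1. Summed over all 100 genes, the level was 675 ± 3.63 FPKM in CKO Tu, 655 ± 0.803 FPKM in WT Tu and 580 ± 7.62 FPKM in WT DMSO (SD, n = 3 each).

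The first comparison, WT Tu against WT DMSO, gives the response of wild-type hepatocytes to tunicamycin. Slc35b1, the carrier that exchanges ATP for ADP across the ER membrane, and Mgat2, the Golgi enzyme that starts the second antenna of N-glycans, rose most. Carriers of GDP-fucose (Slc35c1) and of UDP-xylose and UDP-GlcNAc (Slc35b4) rose too. Galnt10, a polypeptide GalNAc transferase, and the sialyltransferases St6gal1 and St3gal2 fell most. Of the 50 genes tested, 11 rose, 8 fell and 31 did not pass an adjusted p of 0.05 in limma. Of all 11858 genes tested, 17.7% rose and 15.9% fell, so the shares of these families, 22% and 16%, were near the background. Their median change was -0.04 on the log2 scale, against -0.002 over all genes tested. With FPKM rescaled to total fragments, which moved the median of all genes to -0.11, 9 rose and 15 fell, so higher calls made up 37.5% of the calls in place of 57.9%. Upper-quartile scaling gave 11 higher and 12 lower, or 47.8% higher. Over all genes called, the higher share was 31.5% with total fragments and 42.3% with upper-quartile scaling, in place of 52.7%. Without WT Tu replicate 1 the counts were 11 higher and 7 lower, and without WT DMSO replicate 1 they were 11 and 6.

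**Figure D1:**
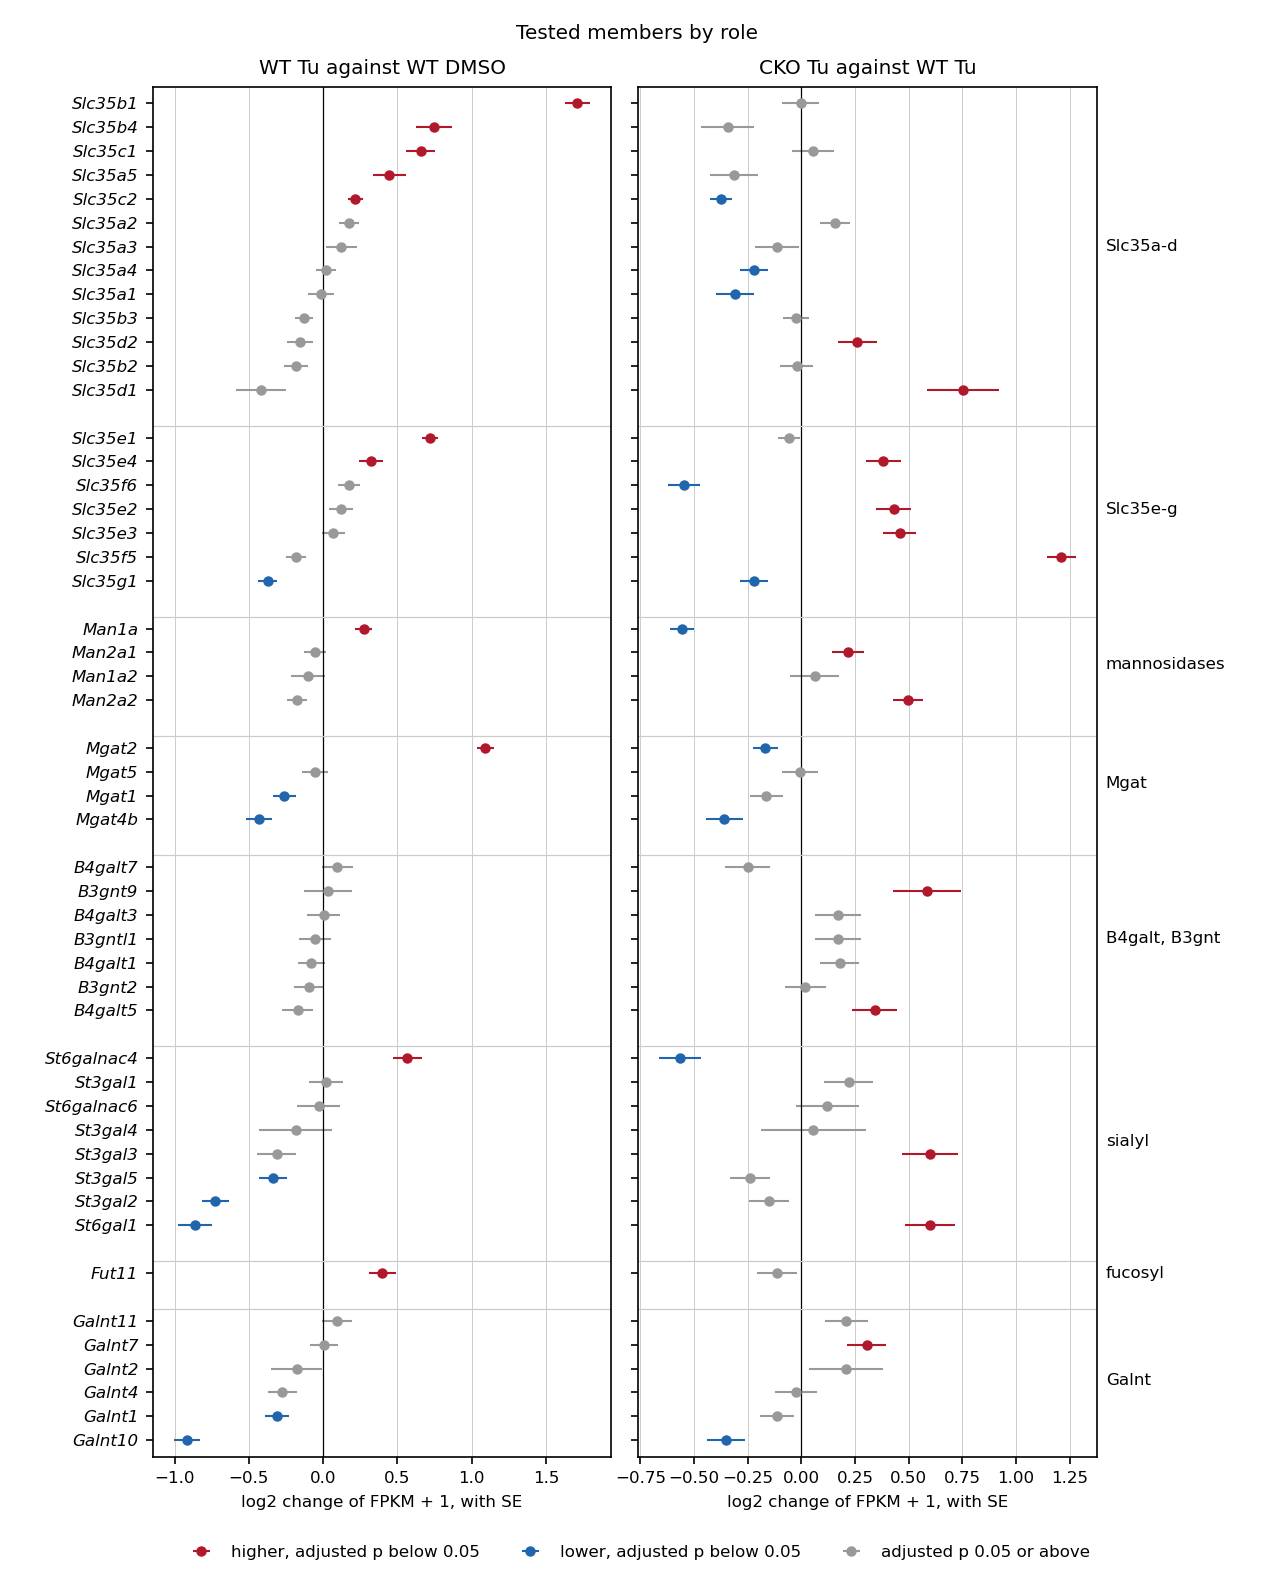
Change of each tested gene (rows, grouped by role) as log2 of FPKM + 1 with its limma standard error, for WT Tu against WT DMSO (left) and CKO Tu against WT Tu (right, on its own axis scale). Slc35b1 and Mgat2 stand furthest right in the left panel at 1.71 and 1.09, and Slc35f5 stands furthest right in the right panel at 1.21.

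Sequence before the gene start is shown for genes at both ends of the tunicamycin response, 3 that rose most and 2 that fell most. The windows come from RefSeq on GRCm38.p6, the assembly also called mm10, and hold up to 250 bases before a RefSeq start, limited to bases before the gene start in the deposited table. Capitals mark the letters CCAAT and CCACG on either strand, which are also the ends of the ER stress response element. The Slc35b1 window is chr11:95384606-95384691 (plus strand), that of Mgat2 chr12:69183908-69184156 (plus strand) and that of Slc35b4 chr6:34177112-34177304 (minus strand). The Galnt10 window is chr11:57645192-57645441 and that of St6gal1 chr16:23224490-23224739, both on the plus strand.
Slc35b1: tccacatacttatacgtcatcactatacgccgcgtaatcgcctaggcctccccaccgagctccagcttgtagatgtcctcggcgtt
Mgat2: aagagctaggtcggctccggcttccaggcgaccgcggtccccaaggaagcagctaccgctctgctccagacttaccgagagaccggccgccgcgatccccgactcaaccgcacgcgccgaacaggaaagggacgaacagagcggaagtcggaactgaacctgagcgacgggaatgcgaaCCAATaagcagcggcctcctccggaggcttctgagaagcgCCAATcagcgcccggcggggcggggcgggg
Slc35b4: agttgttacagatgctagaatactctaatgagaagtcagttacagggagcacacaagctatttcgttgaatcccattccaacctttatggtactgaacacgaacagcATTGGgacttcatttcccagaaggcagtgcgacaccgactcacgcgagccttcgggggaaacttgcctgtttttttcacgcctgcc
Galnt10: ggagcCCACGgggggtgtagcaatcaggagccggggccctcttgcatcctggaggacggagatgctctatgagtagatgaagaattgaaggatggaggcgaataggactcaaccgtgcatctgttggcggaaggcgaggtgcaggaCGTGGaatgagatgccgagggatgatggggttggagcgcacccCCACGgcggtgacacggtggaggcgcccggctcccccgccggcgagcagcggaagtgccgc
St6gal1: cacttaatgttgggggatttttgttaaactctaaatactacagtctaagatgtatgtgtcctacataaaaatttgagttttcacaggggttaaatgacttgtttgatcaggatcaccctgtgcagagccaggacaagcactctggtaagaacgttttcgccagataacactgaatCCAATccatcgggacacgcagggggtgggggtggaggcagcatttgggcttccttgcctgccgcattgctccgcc
Counted from the RefSeq start, Mgat2 held CCAAT at positions -71 and -31, St6gal1 at -75 and Slc35b4, on the opposite strand, at -143. St6gal1 also has RefSeq starts further downstream, whose windows are not shown. On the opposite strand these held CCAAT at -195, -162 and -9 and CCACG at -130, each counted from its own start. Galnt10 held CCACG at -245 and -61, and at -104 on the opposite strand, and the Slc35b1 stretch held neither.

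The same search was run over RefSeq windows from 250 bases before to 50 after the start, on both strands. Windows were found for 76 of 99 gene symbols of these families, 99 windows in all, out of 32851 windows of 27025 genes. The ER stress response element (ERSE), CCAAT and CCACG spaced by 9 bases, was in 0 of the 99 windows and in 0.119% of all windows. Its second form (ERSE-II), ATTGG and CCACG spaced by 1 base, was in 0 and in 0.0365%. The element UPRE, TGACGTGG, was in 0 of the 99 and in 0.676% of all, and the element CARE, TGATGNAA, was in 2 of the 99, those of Fut8 and Galnt11, and in 3.97% of all. CCAAT alone was in 30.3% of the 99 and 37.4% of all windows, and CCACG alone in 36.4% and 32.8%. Matches of these short letters overlap with ERSE by construction. The lack of a match says only that these letters were not in these windows.

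Among carriers of the Slc35a to Slc35d families, 5 of the 13 tested rose, 0 fell and 8 did not pass (limma). The shares were 38.5% and 0%, against 17.7% and 15.9% of all genes tested. At an unadjusted p under 0.05, 2 were lower (Slc35b2 and Slc35d1), and voom called 1 of them lower, Slc35d1. Rescaling to total fragments called Slc35b2, Slc35b3 and Slc35d1 lower, and upper-quartile scaling called Slc35b2 lower. The replicate block called Slc35d1 lower, and removal of the GC trend called Slc35b3 and Slc35d1 lower. Slc35b1 (ENSMUSG00000020873, mm10 chromosome 11, 95384692 to 95391776, plus strand) had 103, 87.0 and 93.8 FPKM in the WT Tu libraries, against 31.1, 25.4 and 28.3 FPKM in the WT DMSO libraries. The groups lay far apart, and Slc35b1 rose by 1.71 ± 0.09 on the log2 scale (SE, limma adjusted p = 2.3e-06), with a ratio of means of 3.35. It made up 30.9% ± 1.15 of the summed Slc35 FPKM in WT Tu and 12.5% ± 0.889 in WT DMSO (SD, n = 3 each).

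Slc35b4 had 5.27, 3.84 and 3.74 FPKM in the WT Tu libraries, against 2.49, 1.96 and 1.95 FPKM in the WT DMSO libraries. It rose by 0.75 ± 0.12 (SE, log2 scale, limma adjusted p = 0.0018), and WT Tu replicate 1 was the highest. Slc35c1, the Golgi GDP-fucose carrier, had 21.2, 20.3 and 18.2 FPKM in WT Tu, against 14.3, 11.98 and 10.6 FPKM in WT DMSO. Slc35c1 rose by 0.66 ± 0.10 (SE, log2 scale, limma adjusted p = 0.0012), without overlap of the groups. Slc35a5, whose sugar is not firmly assigned, and Slc35c2, a relative of the GDP-fucose carrier, rose by less, 0.45 ± 0.11 and 0.22 ± 0.05 (SE, log2 scale). The call of Slc35c2 was lost with rescaling to total fragments (0.09, adjusted p = 0.21), and with the trend on GC content removed it was 0.44. With that trend removed, Slc35a5 fell short at 0.28 (adjusted p = 0.068).

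The carriers of CMP-sialic acid, UDP-galactose and UDP-glucuronic acid did not pass. Slc35a1, which carries CMP-sialic acid, had 16.6, 14.0 and 14.3 FPKM in WT Tu and 14.7, 14.3 and 16.2 FPKM in WT DMSO. Slc35a2, the X-linked UDP-galactose carrier, had 5.38, 5.75 and 5.19 FPKM in WT Tu and 4.78, 4.61 and 4.74 FPKM in WT DMSO (log2 change 0.17 ± 0.07 SE, limma adjusted p = 0.085). Slc35a3, for UDP-GlcNAc, averaged 4.61 ± 0.715 FPKM in WT Tu and 4.13 ± 0.401 FPKM in WT DMSO (SD, n = 3 each). Slc35d1, for UDP-glucuronic acid and UDP-GalNAc, had 4.77, 3.89 and 4.201 FPKM in WT Tu and 8.503, 4.87 and 5.30 FPKM in WT DMSO. Its WT DMSO replicate 1 was far above the other 2, and its change of -0.42 ± 0.17 (SE, log2 scale) had a limma adjusted p of 0.085. Slc35d1 was called lower with rescaling to total fragments, voom, the replicate block, the GC trend removed, or without WT DMSO replicate 2. Slc35b2 and Slc35b3, which carry the sulfate donor PAPS, changed by -0.18 and -0.13 with adjusted p of 0.10 and 0.13.

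In the Slc35e to Slc35g families, mostly carriers without an assigned sugar, 2 of the 7 tested rose and 1 fell. These are 28.6% and 14.3%, against 17.7% and 15.9% of all genes tested. Slc35e1 had 19.8, 21.4 and 21.4 FPKM in WT Tu, against 12.3, 11.9 and 12.6 FPKM in WT DMSO. It rose by 0.72 ± 0.05 (SE, log2 scale, limma adjusted p = 1.6e-05), with replicates of each group close together. Slc35e4 rose by 0.32 ± 0.08 (SE, log2 scale), with means of 4.70 ± 0.478 FPKM in WT Tu and 3.56 ± 0.203 FPKM in WT DMSO (SD, n = 3 each), and by 0.56 with the GC trend removed. Slc35g1, which encodes a binding partner of the ER calcium sensor STIM1, had 12.9, 12.5 and 11.98 FPKM in WT Tu, against 18.0, 15.9 and 15.6 FPKM in WT DMSO. It fell by 0.37 on the log2 scale, with a standard error of 0.06 (limma adjusted p = 0.0025). Slc35f5, among the 5 highest of all these genes, had 36.8, 31.6 and 33.7 FPKM in WT Tu and 38.9, 38.2 and 39.1 FPKM in WT DMSO (log2 change -0.19, limma adjusted p = 0.063). It was called lower with upper-quartile scaling, rescaling to total fragments, voom, the GC trend removed, or without WT Tu replicate 1.

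Of the 4 branching enzymes of N-glycans tested, Mgat2 rose and Mgat1 and Mgat4b fell. Their shares were 25% and 50%, against 17.7% and 15.9% of all genes tested. Mgat1 starts hybrid and complex N-glycans, Mgat2 adds N-acetylglucosamine to the other arm, and Mgat4b and Mgat5 add further branches. Mgat2 (ENSMUSG00000043998, mm10 chromosome 12, 69184157 to 69186770, plus strand) had 67.0, 66.4 and 66.9 FPKM in WT Tu, against 33.1, 30.1 and 29.3 FPKM in WT DMSO. It rose by 1.09 ± 0.06 (SE, log2 scale, limma adjusted p = 3e-06), and the WT Tu values lay within 1 FPKM of each other. Mgat4b had 56.9, 71.5 and 70.7 FPKM in WT Tu, against 87.6, 90.1 and 90.4 FPKM in WT DMSO, with WT Tu replicate 1 the lowest. Mgat4b fell by 0.43 (SE 0.09, log2 scale, limma adjusted p = 0.0057), with a change of -0.20 once the GC trend was removed. It held 99.66% to 99.99% of the summed FPKM of the Mgat4 family over the 9 libraries. Mgat1 had 15.9, 18.7 and 18.0 FPKM in WT Tu, against 23.1, 20.2 and 20.3 FPKM in WT DMSO, a change of -0.26 ± 0.08 (SE, log2 scale, limma adjusted p = 0.029). Its call was lost without WT DMSO replicate 1 (adjusted p = 0.088) and without WT Tu replicate 1, and with the GC trend removed (-0.11, adjusted p = 0.22) or no filter on low values (adjusted p = 0.06). Mgat5 averaged 2.71 ± 0.23 FPKM in WT Tu and 2.85 ± 0.185 FPKM in WT DMSO (SD, n = 3 each) and did not pass.

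Of the 4 Golgi mannosidases tested, 1 rose and 3 did not pass. The higher share was 25%, against 17.7% of all genes tested. Man1a, a Golgi mannosidase of class I, had 33.4, 34.4 and 32.5 FPKM in WT Tu, against 28.7, 26.3 and 27.5 FPKM in WT DMSO. The groups did not overlap, and it rose by 0.27 ± 0.06 (SE, log2 scale, limma adjusted p = 0.006), a call lost with rescaling to total fragments. Man2a1, mannosidase II, had 21.5, 19.9 and 18.5 FPKM in WT Tu and 22.7, 20.2 and 19.5 FPKM in WT DMSO, with overlap. Of the 7 B4galt and B3gnt genes tested, 0 passed in limma, 0 had an unadjusted p under 0.05 and 0 were called by voom. Over all genes tested, limma called 17.7% higher and 15.9% lower. Without WT Tu replicate 3, B4galt5 was called lower. B4galt1, the main galactosyltransferase of N-glycans, had 7.32, 8.18 and 7.54 FPKM in WT Tu and 9.01, 8.18 and 7.35 FPKM in WT DMSO.

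Among the 8 sialyltransferases tested, 1 rose, 3 fell and 4 did not pass. These are 12.5% and 37.5%, against 17.7% and 15.9% of all genes tested. St6gal1, which caps N-glycans of plasma proteins with sialic acid (ENSMUSG00000022885, mm10 chromosome 16, 23224740 to 23360350, plus strand), had 2.62, 2.57 and 2.604 FPKM in WT Tu, against 6.64, 5.76 and 4.43 FPKM in WT DMSO. The WT Tu values were nearly equal and those of WT DMSO spread widely, and St6gal1 fell by 0.86 (SE 0.12, log2 scale, limma adjusted p = 0.00062). St3gal2, which sialylates core O-glycans and glycolipids, had 1.19, 1.21 and 1.30 FPKM in WT Tu, against 3.04, 2.40 and 2.66 FPKM in WT DMSO. It fell by 0.72 (SE 0.09, limma adjusted p = 0.00049), with a ratio of means of 0.457 and a change of -1.13 by voom. St3gal5, the synthase of the ganglioside GM3, averaged 7.51 ± 0.773 FPKM in WT Tu and 9.76 ± 0.942 FPKM in WT DMSO (SD, n = 3 each). Its change of -0.34 (limma adjusted p = 0.022) was lost without WT DMSO replicate 2 or 3, or WT Tu replicate 1 or 2, with an adjusted p of up to 0.081, and with no filter on low values (adjusted p = 0.055).

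St6galnac4, which adds sialic acid to the inner sugar of sialylated O-glycans, went the other way. It had 3.60, 3.50 and 3.91 FPKM in WT Tu, against 2.10, 2.43 and 1.94 FPKM in WT DMSO, and rose by 0.57 ± 0.10 (SE, log2 scale, limma adjusted p = 0.0025). Within the St6gal and St6galnac families, St6galnac4 held 43.2% of the summed FPKM in WT Tu and 21.3% in WT DMSO, and St6gal1 held 30.6% in WT Tu and 54.8% in WT DMSO. St3gal1, which sialylates core O-glycans and had the highest level of the sialyltransferases, had 26.7, 30.9 and 30.6 FPKM in WT Tu and 26.6, 30.9 and 29.5 FPKM in WT DMSO. St3gal4, which caps N-glycans, had 11.97, 16.7 and 16.5 FPKM in WT Tu and 11.03, 21.9 and 20.4 FPKM in WT DMSO, and replicate 1 was the lowest of each group. Neither passed, with adjusted p of 0.91 and 0.60 (limma).

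**Figure D2:**
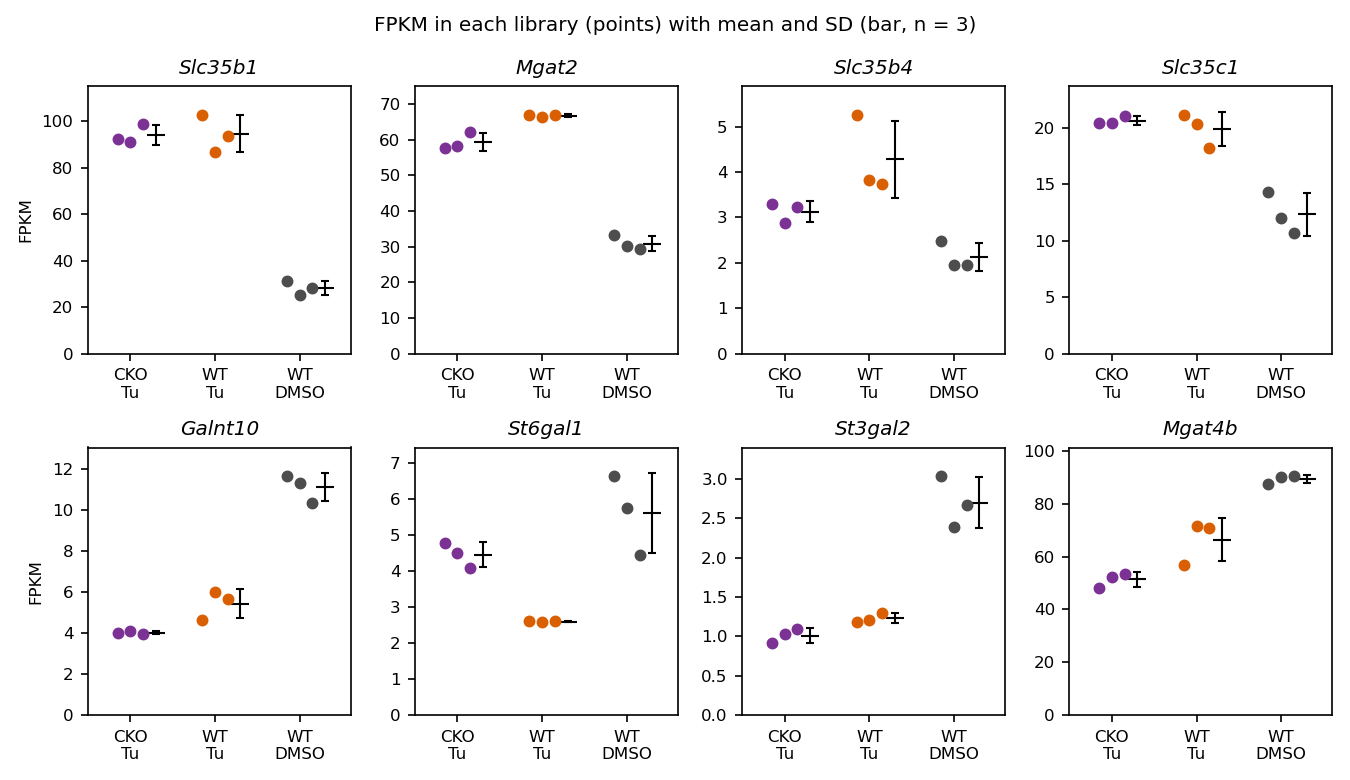
FPKM of 8 genes named for their change with tunicamycin, in each library of CKO Tu, WT Tu and WT DMSO (points), with the mean and SD of 3 libraries (bars). In WT Tu, Slc35b1, Mgat2, Slc35b4 and Slc35c1 lie above every WT DMSO library, and Galnt10, St6gal1, St3gal2 and Mgat4b lie below.

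Of the 6 polypeptide GalNAc transferases tested, 2 fell and 4 did not pass. The lower share was 33.3%, against 15.9% of all genes tested. Galnt10, which prefers peptides that already carry GalNAc (ENSMUSG00000020520, mm10 chromosome 11, 57645442 to 57787514, plus strand), had 4.63, 6.01 and 5.68 FPKM in WT Tu, against 11.7, 11.4 and 10.4 FPKM in WT DMSO. It fell by 0.92 (SE 0.09, log2 scale, limma adjusted p = 8.3e-05), and the WT Tu values lay well below those of WT DMSO. Galnt1, a broad initiator of O-glycans, had 9.37, 8.53 and 7.93 FPKM in WT Tu, against 11.6, 11.3 and 9.86 FPKM in WT DMSO. Its change of -0.31 ± 0.08 (SE, limma adjusted p = 0.016) was lost without WT DMSO replicate 1, WT DMSO replicate 2 (adjusted p = 0.058) or WT Tu replicate 3. Galnt2, another broad initiator, was low, with 0.410, 0.772 and 0.997 FPKM in WT Tu and 1.16, 0.609 and 1.08 FPKM in WT DMSO, and did not pass. Summed over the 19 Galnt genes, the level was 19.8 ± 0.655 FPKM in WT Tu and 28.2 ± 1.71 FPKM in WT DMSO (SD, n = 3 each), and Galnt10 held 27.5% of it in WT Tu and 39.4% in WT DMSO.

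Fucosyltransferases were low, and Fut11 was the only one of 8 that could be tested. Fut11, which in humans acts in the ER on EMI domains, had 3.19, 2.63 and 2.96 FPKM in WT Tu, against 1.86, 1.87 and 2.21 FPKM in WT DMSO. It rose by 0.40 ± 0.09 (SE, log2 scale, limma adjusted p = 0.01). Fut8, which adds core fucose to N-glycans, was under the filter, with 0.320, 0.346 and 0.471 FPKM in WT Tu and 0.516, 0.530 and 0.473 FPKM in WT DMSO. B4galt6, a lactosylceramide synthase, was also under it, with 126 fragments in the 3 WT Tu libraries and 305 in the 3 WT DMSO libraries. With no filter on low values, 3 of the 37 genes below it passed in limma, B4galt6, Fut1 and Fut10, all lower in WT Tu at -0.49, -0.36 and -0.20 on the log2 scale.

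Other genes of the pathway were taken as 3 lists. Of 30 tested genes that make or recycle nucleotide sugars, 12 rose and 4 fell in WT Tu. Nans, the sialic acid phosphate synthase, averaged 20.2 ± 1.68 FPKM in WT Tu and 5.05 ± 0.528 FPKM in WT DMSO (SD, n = 3 each), a rise of 1.81. Gmppb, which makes GDP-mannose, rose by 1.35, while Galk1, galactokinase, fell by 0.77 and Fuk, fucokinase, by 0.66 on the log2 scale. Of 21 other Golgi glycosyltransferases tested, 6 rose and 5 fell. Chsy1, a chondroitin synthase, rose by 0.94, and Gcnt2, a branching enzyme of poly-N-acetyllactosamine, fell by 0.95. Of 22 genes of Golgi structure and ion supply, 13 rose and 1 fell, or 59.1% and 4.55%. The shares were 40% and 13.3% in the nucleotide-sugar list and 28.6% and 23.8% in the list of other glycosyltransferases, against 17.7% and 15.9% of all genes tested. Cog3, a subunit of the tethering complex COG, rose by 1.06, and the golgins Golga4 and Golgb1 rose by 0.70 and 0.69. The medians of these 3 lists were 0.15, -0.07 and 0.34, against -0.002 over all genes tested.

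Markers of endothelial cells summed to 4.76 to 5.90 FPKM in WT Tu and 11.2 to 11.8 FPKM in WT DMSO. Of the 9 markers, 4 were tested and all 4 fell. Markers of lymphocytes and neutrophils summed to 4.88 to 6.45 FPKM in WT Tu and 1.47 to 1.80 FPKM in WT DMSO, and the 1 tested rose. Of 2 Kupffer cell markers tested, 1 rose and 1 fell, and their sum was 96.9 to 115 FPKM in WT Tu and 75.3 to 93.0 FPKM in WT DMSO. Of 10 hepatocyte markers tested, 4 fell. Hepatocyte markers summed to 19470 to 20710 FPKM in WT Tu and 19960 to 22220 FPKM in WT DMSO. Over all genes tested, 17.7% rose and 15.9% fell. The part of these cell types in the changes of the genes above was not tested. In bulk RNA, fewer cells of a type and less RNA per cell cannot be told apart.

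The second comparison, CKO Tu against WT Tu, gives the difference between the genotypes under tunicamycin, joined with the sex-linked difference described above. Slc35f5, a carrier without an assigned sugar, stood 2.35 times as high in CKO Tu cells, and Slc35d1, St6gal1 and St3gal3 were higher. St6galnac4, Man1a, Slc35f6 and Slc35c2 were lower. Slc35b1 and Slc35c1 did not pass. Of the 50 genes tested, 13 were higher, 10 lower and 27 did not pass in limma. Of all genes tested, 18.7% were higher and 19.6% lower, close to the 26% and 20% of these families, and the medians were 0.007 for these genes and -0.002 for all genes. Without CKO Tu replicate 1 the counts fell to 8 higher and 6 lower, and with rescaling to total fragments they were 14 and 7, or 66.7% higher in place of 56.5%. Over all genes called, that rescaling gave 58.0% higher in place of 48.8%. The 14 calls that held with each library left out in turn were 8 higher and 6 lower. This comparison shares the WT Tu libraries with the first, so the changes of a gene in both are not independent.

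Carriers differed in both directions. Slc35f5 (ENSMUSG00000026342, mm10 chromosome 1, 125560595 to 125595820, plus strand) had 83.4, 82.1 and 74.7 FPKM in CKO Tu, against 36.8, 31.6 and 33.7 FPKM in WT Tu. The groups lay far apart, and the difference was 1.21 ± 0.07 (SE, log2 scale, limma adjusted p = 4.6e-06), with a ratio of means of 2.35. WT DMSO cells had 38.9, 38.2 and 39.1 FPKM, so CKO Tu stood above both WT groups. Slc35f5 held 23.1% ± 1.25 of the summed Slc35 FPKM in CKO Tu and 11.1% ± 0.329 in WT Tu (SD, n = 3 each).

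Slc35d1 had 8.15, 7.09 and 8.49 FPKM in CKO Tu, against 4.77, 3.89 and 4.201 FPKM in WT Tu, a difference of 0.75 ± 0.17 (SE, log2 scale, limma adjusted p = 0.0076). WT DMSO replicates 2 and 3, at 4.87 and 5.30 FPKM, were near WT Tu, and WT DMSO replicate 1, at 8.503 FPKM, was just above CKO Tu. Slc35e3, Slc35e2 and Slc35e4 were higher by 0.46, 0.43 and 0.38, each without overlap of the groups. Slc35e3 had 16.2, 14.0 and 13.7 FPKM in CKO Tu, against 11.2, 9.66 and 10.2 FPKM in WT Tu. Slc35e2 had 6.39, 6.17 and 5.57 FPKM in CKO Tu, against 4.74, 3.80 and 4.18 FPKM in WT Tu. Slc35e4 had 6.88, 6.21 and 6.17 FPKM in CKO Tu, against 5.09, 4.17 and 4.84 FPKM in WT Tu. Its levels thus stood highest in CKO Tu and lowest in WT DMSO, where it averaged 3.56 ± 0.203 FPKM (SD, n = 3). With the GC trend removed its difference between CKO Tu and WT Tu was 0.25 and its call was lost (adjusted p = 0.13).

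Slc35f6 had 4.59, 5.41 and 4.92 FPKM in CKO Tu, against 7.26, 8.35 and 7.58 FPKM in WT Tu, a difference of -0.55 ± 0.07 (SE, log2 scale, limma adjusted p = 0.0006). Slc35c2 had 18.6, 19.3 and 18.0 FPKM in CKO Tu, against 23.7, 25.2 and 24.5 FPKM in WT Tu, a difference of -0.37 ± 0.05 (SE, limma adjusted p = 0.0006). Both were without overlap, and the CKO Tu levels lay below WT DMSO as well. Slc35a1, the CMP-sialic acid carrier, had 11.9, 10.7 and 13.0 FPKM in CKO Tu, against 16.6, 14.0 and 14.3 FPKM in WT Tu (-0.31 ± 0.09 SE, limma adjusted p = 0.023). Slc35g1 had 10.3, 10.4 and 10.9 FPKM in CKO Tu, against 12.9, 12.5 and 11.98 FPKM in WT Tu (-0.22 ± 0.06 SE, log2 scale). Slc35a4, whose sugar is not firmly assigned, had 11.97, 13.2 and 11.7 FPKM in CKO Tu, against 15.6, 14.1 and 13.7 FPKM in WT Tu (-0.22 ± 0.07 SE, log2 scale). Both passed, with groups close together but not overlapping. Slc35a2 had 6.71, 5.68 and 6.17 FPKM in CKO Tu and 5.38, 5.75 and 5.19 FPKM in WT Tu and did not pass (0.16, adjusted p = 0.10). Slc35b1 had 92.5, 91.1 and 99.0 FPKM in CKO Tu and 103, 87.0 and 93.8 FPKM in WT Tu, with overlap (-0.004 ± 0.09 SE, log2 scale, limma adjusted p = 0.98).

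Among sialyltransferases, St6gal1 and St3gal3 were higher and St6galnac4 was lower, of 8 tested. These are 25% and 12.5%, against 18.7% and 19.6% of all genes tested. St6gal1 had 4.78, 4.49 and 4.10 FPKM in CKO Tu, against 2.62, 2.57 and 2.604 FPKM in WT Tu, a difference of 0.60 ± 0.12 (SE, log2 scale, limma adjusted p = 0.0039). St6galnac4 had 1.94, 2.01 and 2.55 FPKM in CKO Tu, against 3.60, 3.50 and 3.91 FPKM in WT Tu, a difference of -0.56 ± 0.10 (SE, limma adjusted p = 0.0023). Set beside WT DMSO, where St6gal1 had 6.64, 5.76 and 4.43 FPKM and St6galnac4 2.10, 2.43 and 1.94 FPKM, the CKO Tu values overlapped with both. In CKO Tu, St6gal1 held 48.5% and St6galnac4 23.6% of the summed FPKM of the St6gal and St6galnac families, against 30.6% and 43.2% in WT Tu.

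St3gal3, which sialylates N-glycans, had 3.78, 3.19 and 3.41 FPKM in CKO Tu, against 1.55, 2.50 and 1.86 FPKM in WT Tu (0.60 ± 0.13 SE, log2 scale, limma adjusted p = 0.0069). It overlaps 9530034E10Rik on the opposite strand, which averaged 76.7 FPKM in CKO Tu, 52.9 FPKM in WT Tu and 46.0 FPKM in WT DMSO. The strand setting of the counting is not given in the sources used here, so reads of the pair cannot be told apart. B3gnt9, higher by 0.58 ± 0.16 (SE, limma adjusted p = 0.019) with 2.41, 1.62 and 1.67 FPKM in CKO Tu and 1.03, 1.01 and 0.727 FPKM in WT Tu, shares the limit, and its difference was 1.03 by voom and 0.96 with a pseudocount of 0.1. Its opposite-strand neighbour D230025D16Rik averaged 18.8 FPKM in CKO Tu, 7.78 FPKM in WT Tu and 6.62 FPKM in WT DMSO. St3gal4, Slc35a4 and Fut11 also overlap an expressed gene on the opposite strand, 4930581F22Rik, Sra1 and 6230400D17Rik. So do B4galt3, Mgat5, B3gnt2, B3gntl1 and Galnt2, with Ppox, Gm8451, 9130230N09Rik, Tbcd and Gm15775. Galnt4 overlaps Poc1b on the same strand.

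Of the 4 mannosidases tested, Man2a1 and Man2a2 were higher and Man1a was lower. These are 50% and 25%, against 18.7% and 19.6% of all genes tested. Man1a had 21.2, 23.1 and 23.0 FPKM in CKO Tu, against 33.4, 34.4 and 32.5 FPKM in WT Tu, a difference of -0.56 ± 0.06 (SE, log2 scale, limma adjusted p = 0.00014), and CKO Tu lay below WT DMSO too. Man2a2, mannosidase IIx, had 8.69, 7.37 and 8.23 FPKM in CKO Tu, against 5.18, 5.46 and 5.68 FPKM in WT Tu (0.50 ± 0.07 SE, limma adjusted p = 0.0007). Man2a1 was higher by 0.22, with 23.9, 22.8 and 23.3 FPKM in CKO Tu and 21.5, 19.9 and 18.5 FPKM in WT Tu, at a limma adjusted p of 0.045. Man1a2, the other tested mannosidase of class I, did not pass (0.06, adjusted p = 0.71).

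Mgat4b had 48.0, 52.4 and 53.6 FPKM in CKO Tu, against 56.9, 71.5 and 70.7 FPKM in WT Tu, a difference of -0.36 ± 0.09 (SE, log2 scale, limma adjusted p = 0.012). Galnt10 had 3.99, 4.12 and 3.96 FPKM in CKO Tu, against 4.63, 6.01 and 5.68 FPKM in WT Tu, a difference of -0.35 ± 0.09 (SE, limma adjusted p = 0.012). For both, the levels ran lowest in CKO Tu, then WT Tu, then WT DMSO, with no overlap of neighbouring groups. Mgat2, at 57.7, 58.2 and 62.2 FPKM in CKO Tu against 67.0, 66.4 and 66.9 FPKM in WT Tu, differed by -0.17 ± 0.06 (SE, limma adjusted p = 0.048). B4galt5, which like B4galt6 makes lactosylceramide, had 10.1, 9.57 and 8.76 FPKM in CKO Tu, against 6.57, 6.65 and 8.70 FPKM in WT Tu, with WT Tu replicate 3 close to CKO Tu (0.34 ± 0.11 SE, limma adjusted p = 0.031). Galnt7, which like Galnt10 prefers glycosylated peptides, was higher by 0.30 (limma adjusted p = 0.029). B4galt1, Mgat1, Galnt1 and Galnt2 did not pass, at 0.18, -0.16, -0.11 and 0.21 on the log2 scale.

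Calls of 9 of the 23 genes were lost when some library was left out. Without CKO Tu replicate 1 the adjusted p (limma) was 0.16 for Slc35d2, 0.15 for Mgat2, 0.10 for B4galt5, 0.083 for Slc35g1 and 0.072 for B3gnt9. Without CKO Tu replicate 2 it was 0.084 for Slc35a1 and 0.10 for Galnt7. Without CKO Tu replicate 3 it was 0.096 for Slc35a4, and without WT Tu replicate 3 it was 0.14 for Man2a1. Each of these is the highest adjusted p for that gene over the libraries left out. Calls of Mgat2, Slc35a4 and Slc35g1 were also lost with rescaling to total fragments. Those of Man2a1 and Slc35d2 were lost with upper-quartile scaling, and those of Mgat2 and Slc35e4 with the GC trend removed. The call of Slc35d2 was lost as well with a pseudocount of 0.1, by voom, and when any of 8 libraries was left out.

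**Figure D3:**
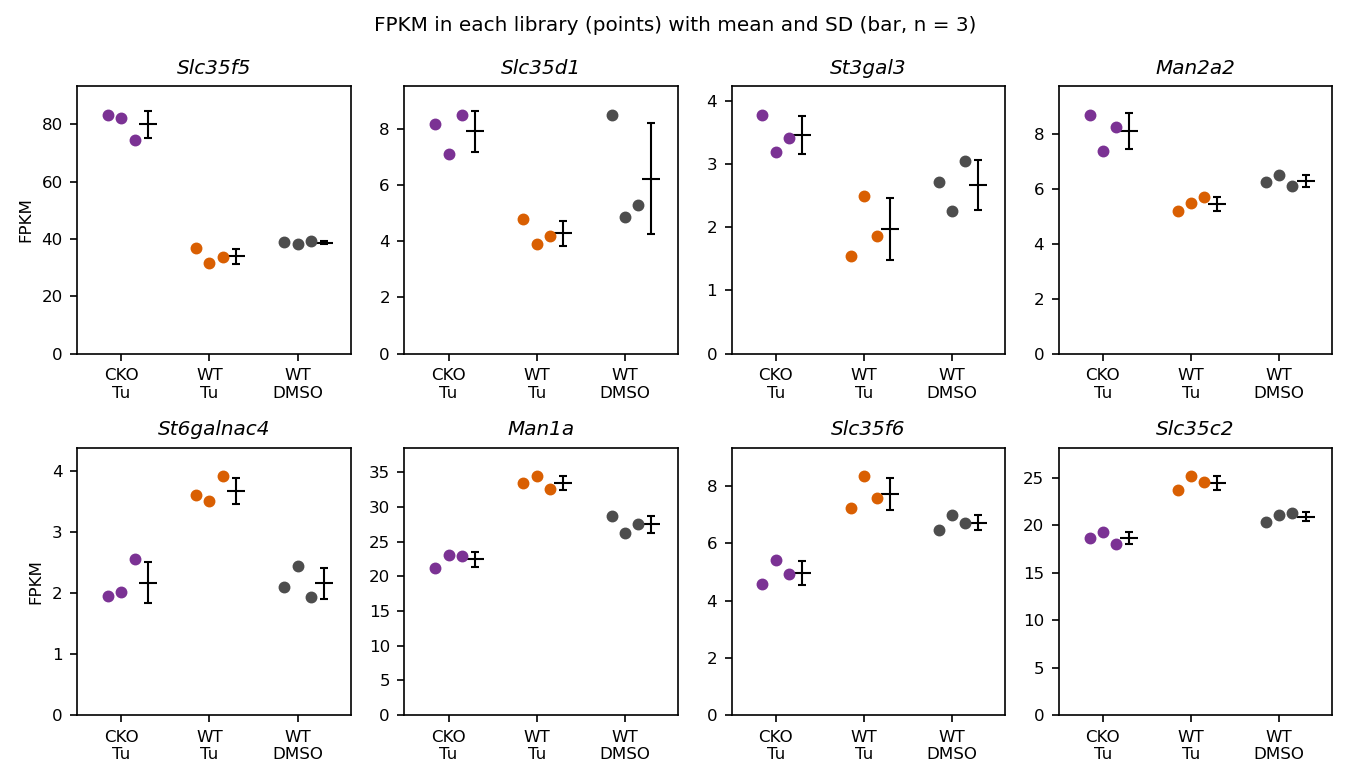
FPKM of 8 genes named for their difference between CKO Tu and WT Tu, in each library of CKO Tu, WT Tu and WT DMSO (points), with the mean and SD of 3 libraries (bars). Slc35f5 lies between 74.7 and 83.4 FPKM in CKO Tu and below 40 FPKM in both WT groups, and Man1a, Slc35f6 and Slc35c2 are lowest in CKO Tu.

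Among genes under the filter, B4galt2, a galactosyltransferase of N-glycans, had 1.16, 0.936 and 1.10 FPKM in CKO Tu, 0.168, 0.404 and 0.364 FPKM in WT Tu and 0.362, 0.386 and 0.390 FPKM in WT DMSO. With no filter it was the only gene of 37 below it that passed for CKO Tu against WT Tu (0.66 ± 0.10 SE, log2 scale, limma adjusted p = 0.0033). That setting, which adjusts over more genes, lost 8 of the 23 calls (B3gnt9, B4galt5, Galnt7, Man2a1, Mgat2, Slc35a1, Slc35a4 and Slc35d2) and left 9 higher and 7 lower. B4galt2 overlaps Slc6a9 on the opposite strand, which averaged 19.3 FPKM in CKO Tu, 13.7 FPKM in WT Tu and 13.0 FPKM in WT DMSO. The 13 genes with no fragment in any library were St6galnac1, St6gal2, Mgat4c, Mgat4d, B3gnt4, B3gnt7, Fut9, Galnt5, Galnt13, Galnt14, Galnt17, Galntl5 and Galntl6, which were not detectable at this depth. Below the filter the highest means over the 9 libraries were those of B4galt6, B4galt2, Slc35g2 and Fut8, at 0.604, 0.584, 0.442 and 0.396 FPKM.

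In the lists of other genes, 9 of 30 nucleotide-sugar genes were higher and 9 lower in CKO Tu than in WT Tu. Papss1 and Papss2, both synthases of the sulfate donor PAPS, differed in opposite directions. Papss1 averaged 6.90 ± 0.34 FPKM in CKO Tu and 2.11 ± 0.307 FPKM in WT Tu, and Papss2 averaged 5.26 ± 0.639 FPKM in CKO Tu and 16.2 ± 1.62 FPKM in WT Tu (SD, n = 3 each). Uap1l1, a relative of the UDP-GlcNAc synthase Uap1, was lower by -1.67, and Gne, the first enzyme of sialic acid synthesis, by -0.85, while Ugdh, which makes UDP-glucuronic acid, was higher by 0.90 on the log2 scale. Of 21 other Golgi glycosyltransferases, 5 were higher and 1 lower, and Gcnt4, a branching enzyme of O-glycans, was at 1.30 ± 0.116 FPKM in CKO Tu and 0.107 ± 0.0579 FPKM in WT Tu (SD, n = 3 each). With 0.19 ± 0.073 FPKM in WT DMSO, Gcnt4 passed the filter only through the CKO Tu libraries, so its place among the 5 rests on that same high level. Of 22 genes of Golgi structure and ion supply, 6 were higher and 1 lower. Tmem165, a Golgi transporter of manganese and calcium, was higher by 0.46. Of all genes tested, 18.7% were higher and 19.6% lower, against 30% and 30% in the first list, 23.8% and 4.76% in the second and 27.3% and 4.55% in the third. The medians were -0.02, 0.06 and 0.04 for the 3 lists.

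Markers of cholangiocytes summed to 34.3 to 38.3 FPKM in CKO Tu and 22.8 to 24.3 FPKM in WT Tu, and both of those tested were higher. Of 10 hepatocyte markers, 7 were higher and 1 lower, against 18.7% and 19.6% of all genes tested. Their sum went the other way, at 17490 to 18660 FPKM in CKO Tu and 19470 to 20710 FPKM in WT Tu. Endothelial markers summed to 3.49 to 4.04 FPKM in CKO Tu and 4.76 to 5.90 FPKM in WT Tu, and 1 of 4 tested was lower. Markers of lymphocytes and neutrophils summed to 3.03 to 4.58 FPKM in CKO Tu and 4.88 to 6.45 FPKM in WT Tu, and the 1 tested was lower, while 1 of 2 stellate cell markers tested was higher. The part of these in the differences above was not tested.

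CKO Tu was also set against WT DMSO, which joins drug and genotype in 1 contrast and shares libraries with the other 2. Of the 50 genes, 15 were higher and 13 lower in limma, against 25.3% and 24.2% of all genes tested. The largest were Slc35b1 at 1.71, Slc35f5 at 1.03 and Mgat2 at 0.92 on the higher side, and Galnt10 at -1.27, St3gal2 at -0.88 and Mgat4b at -0.79 on the lower side (log2 scale). For St3gal2 the difference was -1.33 with a pseudocount of 0.1 and -1.42 by voom. Slc35a2 was higher by 0.33 (limma adjusted p = 0.0037), with 6.71, 5.68 and 6.17 FPKM in CKO Tu, against 4.78, 4.61 and 4.74 FPKM in WT DMSO. The gene lies on the X chromosome, and the sex-linked difference and the genotype cannot be told apart here. Of the 28 calls, 20 held with each library left out in turn.

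The makeup of each family by summed FPKM shows where single genes carry a family. Slc35 genes summed to 347 ± 4.14 FPKM in CKO Tu, 306 ± 15.03 FPKM in WT Tu and 226 ± 7.01 FPKM in WT DMSO, and Galnt genes to 18.9 ± 0.427 FPKM in CKO Tu, 19.8 ± 0.655 FPKM in WT Tu and 28.2 ± 1.71 FPKM in WT DMSO (SD, n = 3 each). Galnt11 held 14.7% of the Galnt sum in CKO Tu, 11.4% in WT Tu and 7.33% in WT DMSO, and Galnt10 held 21.4% in CKO Tu, 27.5% in WT Tu and 39.4% in WT DMSO. St3gal genes summed to 61.1 ± 8.26 FPKM in CKO Tu, 55.3 ± 5.90 FPKM in WT Tu and 62.0 ± 8.47 FPKM in WT DMSO, and 1 library of each group lay well below its other libraries.

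**Figure D4:**
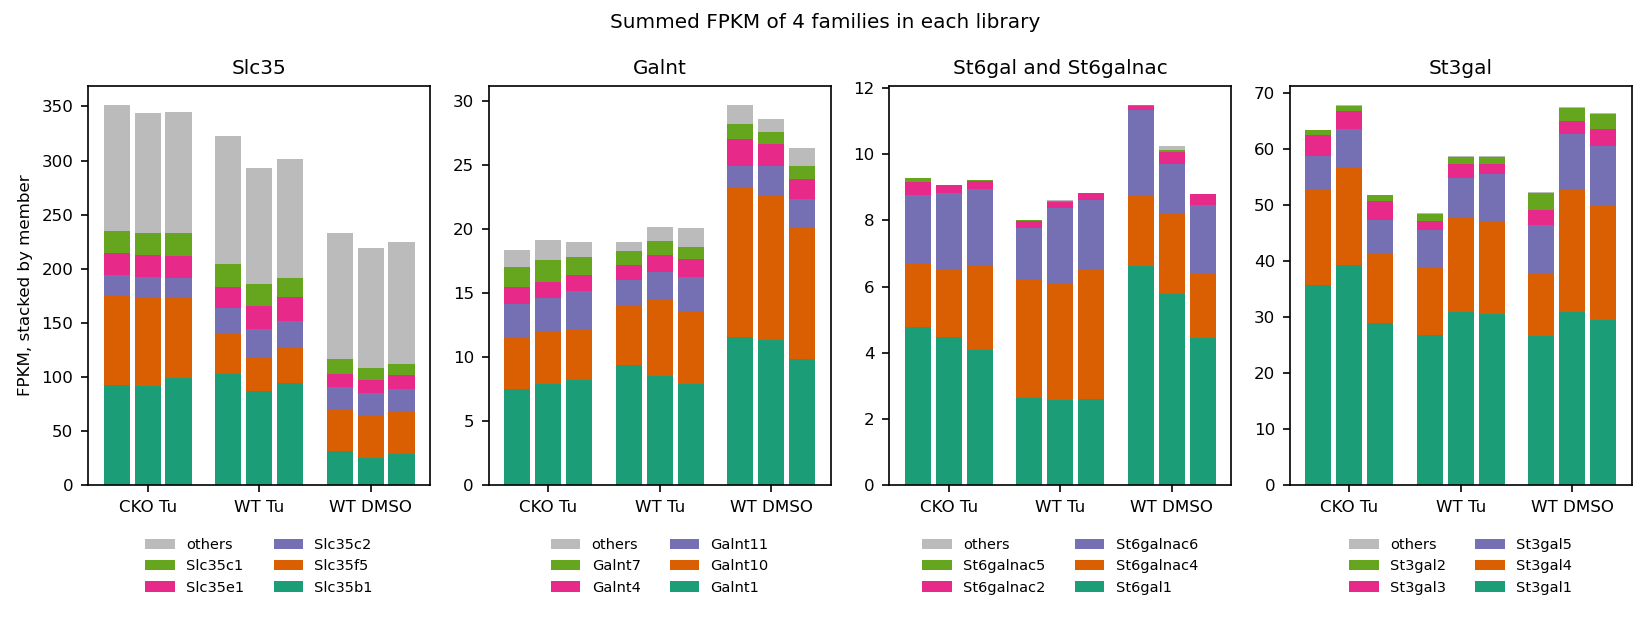
Summed FPKM of 4 families in each library of CKO Tu, WT Tu and WT DMSO, stacked by the 5 genes with the highest means and the rest. Of the named Slc35 genes, Slc35b1 and Slc35f5 have the tallest segments in CKO Tu, and the Galnt10 segment is largest in WT DMSO.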

How the data were processed

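The 9 hepatocyte libraries were grouped by their labels. The deposited table holds FPKM per gene, computed by the authors. Per the submitters' processing notes, HISAT2 2.2.1, featureCounts 1.5.0-p3 and mm10 were used. Sources used here name no annotation release, strand setting or scaling method. Multiplied by gene length, 100% of the FPKM values under 1000 fragments fell on whole steps (tolerance 0.01), which gave the fragments. The implied library sizes were 0.948 to 1.07 times the fragment totals, so a factor per library was present in the deposited FPKM. Factors by trimmed mean of M values, computed here for voom, were 0.939 to 1.05 and ranked the 9 libraries in the same order. Whether the deposited factor was of that kind was not tested. Rescaling to total fragments takes the deposited factor out. Depth was 14897358 to 16001484 fragments per library.

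The 11858 genes that reached 1 FPKM in 3 or more libraries were tested. The log2(FPKM + 1) values of all 9 libraries went into 1 limma fit (limma 3.58.1, R 4.3.3) with an intensity trend. The pseudocount makes log2 changes of low genes smaller than the ratio of means. Tests were two-sided, with Benjamini-Hochberg adjustment over all genes tested and a threshold of 0.05. The steps were tested on simulated data. Of the 100 genes, 99 had the same coordinates in GENCODE M21. Genes were named by a rule: up to 10 in each direction and main comparison with the largest change among those called without overlap of groups, the 10 highest in mean FPKM, and 16 chosen for their role. Genes under the filter were named after their values were seen. The members, lists and rule were chosen with earlier results of these data known. Alternatives were a pseudocount of 0.1, no filter, upper-quartile scaling, total fragments, voom on recovered fragments, a replicate block, each library left out, and, chosen after seeing the data, removal of a GC trend (lowess, span 0.3).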

Additional observations from a re-analysis of the deposited data

How the results depend on the processing

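No called change of these genes reversed under any alternative run. In WT Tu against WT DMSO, scaling to total fragments gave 15 lower calls in place of 8. With each library left out, that comparison had 11 higher and 6 to 9 lower calls. CKO Tu against WT Tu had 8 to 12 higher and 6 to 12 lower calls, with 8 and 6 without CKO Tu replicate 1, and CKO Tu against WT DMSO had 12 to 15 higher and 10 to 14 lower. Of the other counts, 93 stayed within 1.5 times. Single named genes kept their side of the threshold in 1653 combinations of gene, comparison and setting, lost it in 83 and gained it in 40. No pairing by replicate number was seen, since same-numbered deviations correlated at -0.0967 to 0.0208 and 0 of 9 pairs passed 0.1. With 3 libraries to a group, these correlations cannot show whether same-numbered libraries shared an animal or preparation. With the replicate block there were 11 higher and 8 lower calls, 11 and 10, and 15 and 12 in the 3 comparisons in the order of the report. The block lost Mgat1 and gained Slc35d1 in the first, lost Galnt7, Mgat2 and Slc35d2 and gained Slc35b4 in the second, and lost Galnt4 in the third, and it changed no other call. Across all genes, the change in WT Tu against WT DMSO followed GC content with a Spearman correlation of -0.344, against -0.069 over the 50 tested genes here. With the GC trend removed there were 12 higher and 11 lower calls. The cause of these shifts was not tested. With no filter on low values there were 11 higher and 9 lower calls, 9 and 7, and 13 and 14 in the 3 comparisons. Depth limits Ptgs2, with at most 13 fragments per library.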
